A study of Mus musculus with 65 samples.

Results

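The renin-angiotensin genes Agtr1a, Agt and Atp6ap2 were followed across 65 single neurons labelled as from the NTS, the nucleus in the medulla where visceral afferents end. They are 3 of the 11875 uniquely named genes in the deposited table and were taken by name, with earlier results of these data known. In the renin-angiotensin system, renin cuts angiotensinogen, the product of Agt, and angiotensin-converting enzyme, the product of Ace, then forms angiotensin II. Angiotensin II acts mainly through the AT1 receptor, encoded in mice by Agtr1a and its near copy Agtr1b, which couples to Gq proteins, phospholipase C and calcium release. In the brain the peptide is known for driving thirst and sodium appetite, and astrocytes are known as the main brain source of angiotensinogen. Atp6ap2 encodes the (pro)renin receptor, which binds renin and prorenin and is also an accessory subunit of the vacuolar proton pump (V-ATPase).

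The neurons came from male mice of mixed strain that carried Hsd11b2-Cre and the Ai9 reporter, and tdTomato-positive cells were picked by hand after papain digestion. Hsd11b2 encodes the enzyme that inactivates glucocorticoids, and the reporter marks any cell in which this Cre has acted. Mice were fed standard chow (33 neurons) or a low-sodium diet (32 neurons), and all cells of both groups carried the same driver and reporter. The labels give no age, time on diet or animal, so each diet is 1 sample and no test between diets was made. SDs describe cells, not animals. The protocol names Arc-ME as the tissue digested, while the tissue label names the NTS.

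Levels are log2(CPM + 1), where CPM are counts per 1000000 reads as scaled by the authors. Over the lines of the table a cell had between 50078 and 5319462 reads, with a median of 651333, and 1 read stood for 0.16 to 16.1 CPM. All 65 cells carried at least 3 of 9 neuronal markers above 10 CPM, and no pair of cells had identical values. CPM sums exceeded 1000000 in 17 cells, of both diets, by a scaling that is not known. They exceeded 1200000 in 9 cells, all of low sodium. Diet values of the members and lists are therefore also given without these high-sum cells. Among the cells kept, sums still reached 1058070 in chow and 1147330 in low sodium. Median reads were 602351 in chow and 694430 in low sodium, but 1088900 in low sodium without the high-sum cells. Leaving them out thus made depth less equal between diets. Of 18 astrocyte markers, 15 were narrow in these cells, each found in 8 to 40 cells. At least 3 of these exceeded 10 CPM in 16 chow cells (48.5%) and 8 low-sodium cells (25.0%).

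Agtr1a was found in 63 of 65 cells, and both cells at 0 were the shallowest of the series. Among chow cells the lowest, median and highest levels were 0, 7.47 and 9.13. In low-sodium cells they were 0, 7.61 and 11.14. The diets overlapped over almost their whole range. Chow neuron 45 and low-sodium neuron 35, the cells at 0, had 50078 and 50540 reads. A count of 0 there, taken as up to 3 reads, still allows levels of 5.62 and 5.52, counting error only. Thinning every cell to 50000 reads left Agtr1a in 93.8% of cells. The gene rested on a median of 131 reads per cell.

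The lowest level above 0 was that of low-sodium neuron 45, at 2.20 from 1 read. Chow neuron 21 followed, at 3.35 from 2 reads, then low-sodium neurons 9 (3.87, 34 reads) and 15 (4.05, 76 reads). The 3 highest levels belonged to low-sodium neurons 51 (11.14), 47 (9.70) and 46 (9.40), all high-sum cells. Over all cells Agtr1a had a mean of 7.07 ± 1.95 (SD, n = 65 cells). Of 904 genes with a mean within 0.5 of that of Agtr1a, 87 (9.62%) had a larger SD, and their median SD was 1.4. Without the 7 cells with the fewest detected genes the SD was 1.44 and 26.8% of genes of like mean had a larger one. Those 7 cells include both cells at 0 and low-sodium neuron 51.

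**Figure D1:**
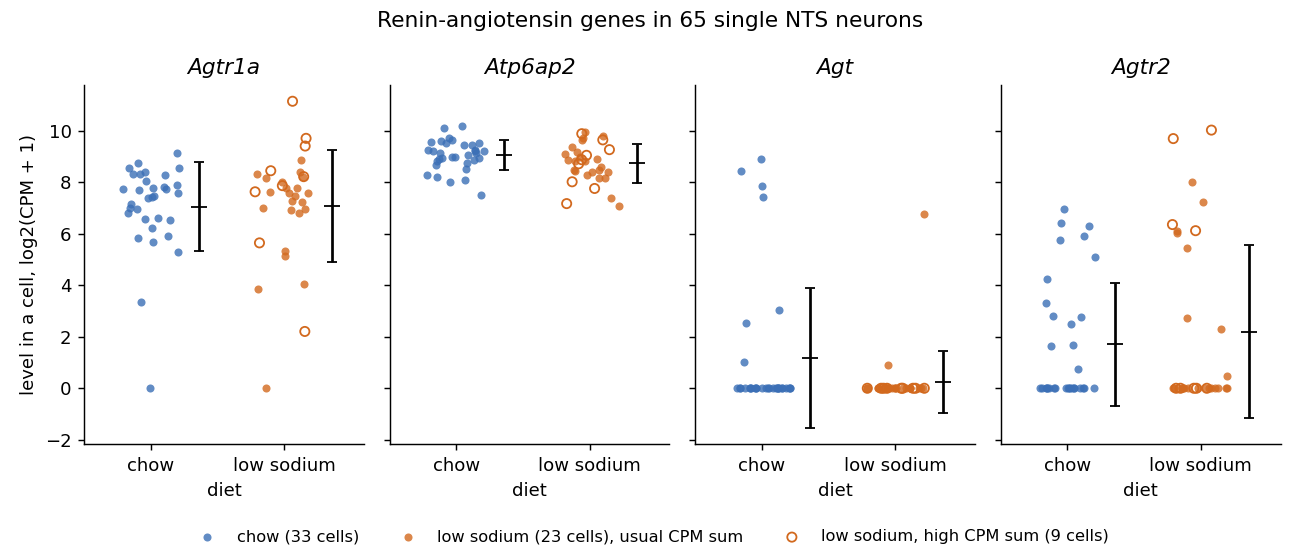
Level of Agtr1a, Atp6ap2, Agt and Agtr2 in each of 65 neurons, as log2(CPM + 1), by diet, where open circles are the 9 low-sodium cells with high CPM sums and bars are means ± SD over cells. Atp6ap2 lay between 7.09 and 10.16 in every cell, Agtr1a was at 0 in 2 cells, and Agt and Agtr2 were at 0 in most.

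Agtr1a had the highest mean level per exon length among the hormone and peptide receptor genes of a list made for this tissue. Of 74 listed genes 25 had a line in the table, and 23 of these are receptors, the others being accessory RAMP genes. Agtr1a stood at a mean of 84.4 ± 107 CPM per kb of exon (median 69.1). Oprl1, the nociceptin receptor, followed at 48.6 ± 35.4 CPM per kb (median 49.9), so the order of these neighbours is not resolved against their spread over cells. Sstr1, a somatostatin receptor, had a mean of 45.4 ± 174 CPM per kb but a median of 6.48, with few cells far above the rest. Npffr1, a receptor for RF-amide peptides, stood at 33.4 ± 35.3 CPM per kb, and Npr2, the receptor for C-type natriuretic peptide, at 19.4 ± 25.8. Agtr1a was the highest of the 23 receptors in 27 cells, 15 of chow and 12 of low sodium, and Oprl1 in 16. Without the high-sum cells the means were 66.6 ± 44.7 for Agtr1a and 49.0 ± 36.6 for Oprl1. Npffr1 (32.4 ± 32.1) then stood above Sstr1 (26.5 ± 47.8), and Agtr2 was at 5.73 ± 13.7. Receptors with no line in the table, such as Oxtr, Glp1r and Mc4r, were not analysed here.

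**Figure D2:**
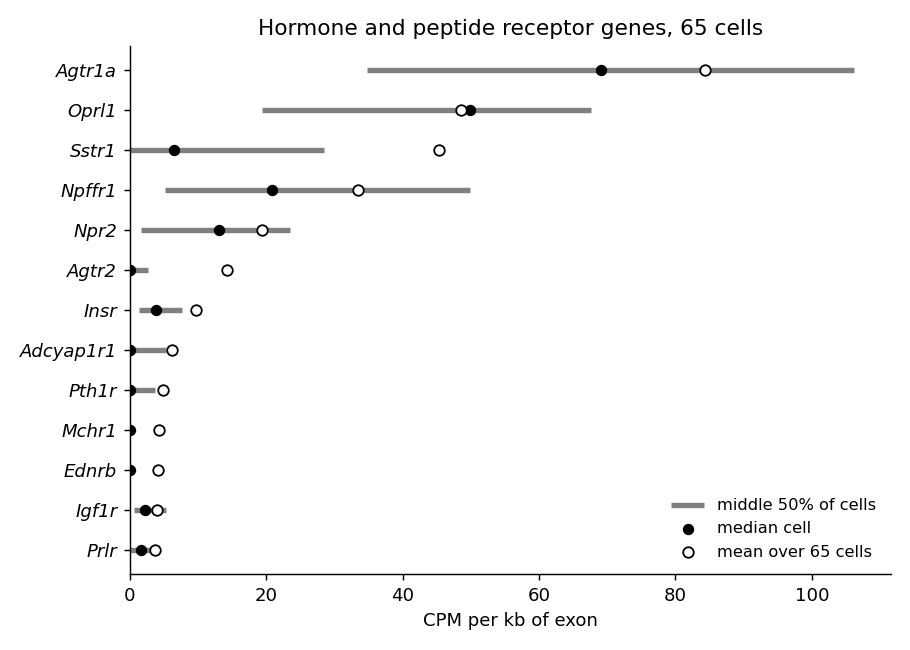
Level per kb of exon for the 13 receptor genes with the highest means over 65 cells, where filled dots are the median cell, open dots the mean and grey bars the middle 50% of cells. Agtr1a had a median of 69.1 CPM per kb and Oprl1 of 49.9, and their bars overlap.

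Agtr1a lies at chr13:30336441-30382867 on the plus strand of GRCm38, is protein-coding, and has a small intronic non-coding gene (Gm48161) on the same strand. Its coding sequence of 1080 bases is 90.8% identical to that of Agtr1b, so reads of this pair may be hard to place and the Agtr1a level is uncertain to that extent. Agtr1b has no line in the table and was not analysed here. The coding sequence of Agtr2, which encodes the AT2 receptor, was 47.0% identical to that of Agtr1a.

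From cell to cell Agtr1a went only loosely with the aldosterone-sensing genes, of which Hsd11b2 also drove the reporter used to pick cells. Nr3c2, the mineralocorticoid receptor gene, ran from 0 to 7.89 in chow cells and from 0 to 9.76 in low-sodium cells. Hsd11b2 ran from 6.42 to 10.03 in chow and from 6.75 to 12.35 in low-sodium cells. Across 65 cells the Spearman correlation of Agtr1a with Nr3c2 was 0.21, against a median of 0.02 over 10120 genes and a 95th percentile of 0.26. It was 0.25 within chow, 0.19 within low sodium and 0.08 without the 7 cells with fewest genes. Without the 24 cells with at least 3 of the 15 narrow astrocyte markers it was 0.28. Pearson's value was 0.29 over all cells and 0.52 without those 24 cells. With Hsd11b2 the Spearman correlation was 0.16 over all cells, 0.10 within chow and 0.22 within low sodium. Hsd11b2 and Nr3c2 themselves stood at 0.37, and at 0.19 without the high-sum cells. Values of 1 cell share its library, depth and scaling, so these figures are descriptions only.

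Single cells show how loosely the levels went together. Low-sodium neuron 45, with 1 read of Agtr1a, had Nr3c2 at 7.62 and Hsd11b2 at 10.36. Low-sodium neuron 15 had Agtr1a at 4.05 beside Nr3c2 at 7.44, and low-sodium neuron 17 had Agtr1a at 5.15 with Nr3c2 at 0. At the upper end, low-sodium neuron 51 had the highest level of both Agtr1a and Hsd11b2 (11.14 and 12.35) and Nr3c2 at 6.91. Both transcripts, Agtr1a and Nr3c2, were found together in 31 chow and 30 low-sodium cells. The glucocorticoid receptor gene Nr3c1 stood at 0.08 against Agtr1a. Slc17a6, a vesicular glutamate transporter gene named after its value was seen, had a higher correlation with Agtr1a (0.42 over all cells, 0.54 in chow and 0.34 in low sodium).

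**Figure D3:**
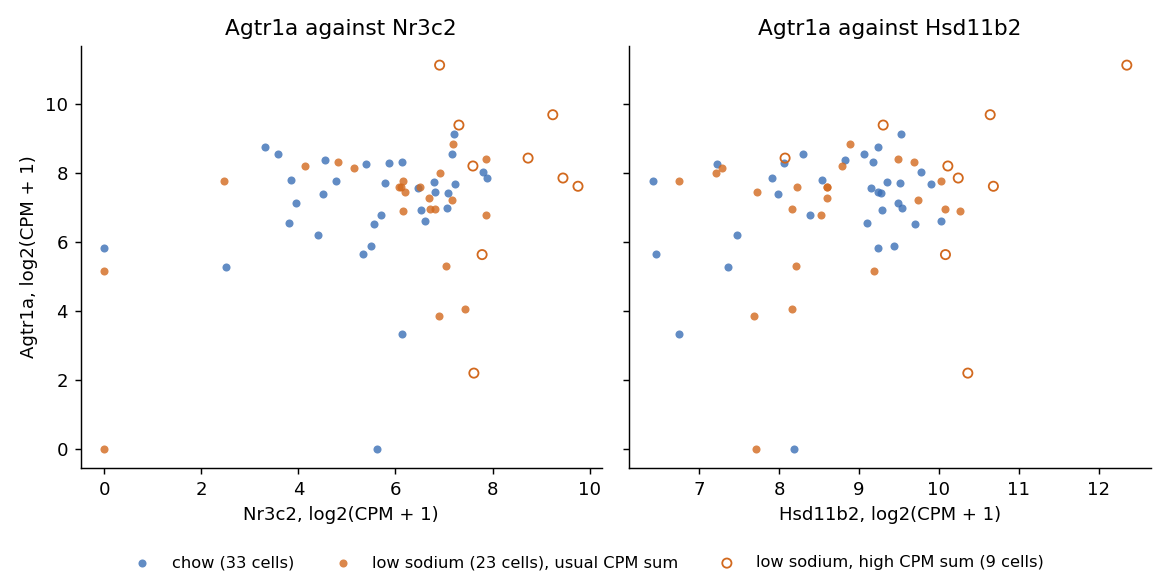
Agtr1a level against Nr3c2 (left) and Hsd11b2 (right) in 65 cells, all as log2(CPM + 1), with diets in colour and the 9 high-sum cells as open circles. The Spearman correlations were 0.21 and 0.16, and low-sodium neuron 45 sits at the lower right of both panels.

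The second angiotensin receptor gene, Agtr2, was found in a minority of cells, while Agtr1a was found in nearly all. Agtr2 encodes the AT2 receptor, which often opposes AT1 signalling. It lies at chrX:21484544-21489164 on the plus strand. It was found in 14 of 33 chow cells (42.4%, exact 95% interval 25.5% to 60.8%), with a highest level of 6.95. In low sodium it was found in 12 of 32 cells (37.5%, 21.1% to 56.3%), with a highest level of 10.02. The medians were 0 in both diets. All 26 cells with Agtr2 also held Agtr1a, but so did 37 cells without Agtr2, and 2 cells held neither. The overlap therefore says little about the pair. Per kb of exon Agtr2 exceeded Agtr1a in 3 of 65 cells. These were low-sodium neurons 17 (558 reads of Agtr2), 45 (229 reads) and 47 (444 reads), of which 45 and 47 are high-sum cells. Thinning to 50000 reads left Agtr2 in 27.7% of cells, so its share depends on depth.

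Enzymes that make or break down angiotensin peptides were mostly low or patchy. Of 26 listed renin-angiotensin genes 14 had a line in the table. Those without one, which include the renin genes Ren1 and Ren2, Agtr1b and Mas1, were not analysed here. Ace was found in 27 cells, with a highest level of 7.91 and a mean of 3.26 ± 8.85 CPM per kb. An antisense gene (Gm11651) overlaps it, and the sources used here do not say whether counting used strand. Enpep, which encodes the aminopeptidase that turns angiotensin II into angiotensin III, was found in 11 cells. Peptidase genes of broader range were found more often, with Lnpep and Rnpep each in 61 cells, Thop1 in 51, Prep in 47, Nln in 37 and Prcp in 20. Ctsd, a lysosomal aspartic protease, was found in all 65 cells at 197 ± 115 CPM per kb, near Atp6ap2 at 200 ± 87.2. Per kb, Agtr1a ranked below these in the list of 14 and above Agtr2 (14.2 ± 49.8).

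Agt transcripts were nearly confined to the few cells that also held many astrocyte transcripts. They were found in 9 cells (13.8%, exact 95% interval 6.53% to 24.7%), of which 7 were from chow and 2 from low sodium. The 5 highest cells were chow neurons 20 (8.91, 443 reads), 36 (8.42, 242 reads), 18 (7.85, 38 reads) and 35 (7.41, 313 reads) and low-sodium neuron 9 (6.75, 266 reads). These 5 held 1302 of the 1308 reads of Agt in the series. The other 4 cells had 1 or 2 reads each. They were chow neurons 29 and 59 (2 reads) and chow neuron 62 and low-sodium neuron 14 (1 read).

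The same 5 cells had 12 to 15 of the 15 narrower astrocyte markers above 10 CPM, more than any other cell. In chow neuron 20 the glutamate transporter gene Slc1a3 was at 9.21, the water channel gene Aqp4 at 8.29 and the gap junction gene Gja1 at 8.34. In low-sodium neuron 9 they were at 8.73, 7.29 and 5.66. Agt fell sharply below 12 markers, but the marker counts themselves declined without a gap there. By the mean of the 15 markers chow neuron 21 (6.01) stood above low-sodium neuron 9 (5.44). Chow neuron 21 and low-sodium neuron 30 each had 11 of the 15 markers, with Slc1a3 at 10.99 and 7.88, and no Agt. Chow neurons 55 and 66, with 9 markers each, also had none. Agt was found in 7 of the 24 cells with at least 3 of the markers (29.2%, 12.6% to 51.1%) and in 2 of the other 41 (4.88%, 0.60% to 16.5%), from 1 read each.

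Over all 65 cells the Spearman correlation of Agt with the mean of the 18 astrocyte markers was 0.37, and Pearson's was 0.72. Without the 24 cells with at least 3 markers the Spearman value was -0.12. In the 56 cells at 0, taking 3 reads as the limit, an Agt level of up to 2.57 in the median cell and 5.62 in the shallowest was not detectable. All 5 Agt-rich cells also carried Agtr1a, at 3.87 to 8.31, and the Hsd11b2 transcript, and like all 65 cells they carried neuronal markers. The part of astrocyte transcripts in the Agt values was not tested.

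**Figure D4:**
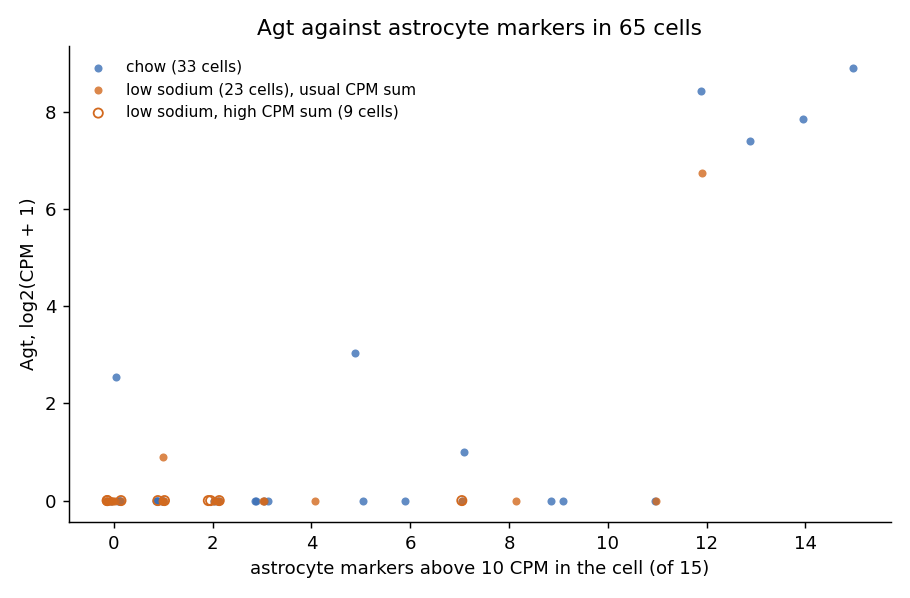
Agt level, as log2(CPM + 1), against the number of the 15 narrower astrocyte markers above 10 CPM in the same cell, for 65 cells (x positions are jittered slightly). The 5 cells with 12 or more markers, a count picked after the values were seen, lie between 6.75 and 8.91. All other cells lie at or below 3.04.

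The start regions of Agt and Atp6ap2 are shown because Agt was found in 9 cells and Atp6ap2 in all 65. Both are from RefSeq (GRCm38.p6), from 250 bases before to 50 after the start, 5′ to 3′ on the gene's strand. Capitals mark every CG pair and, in Agt, the motif TATAAA, searched on both strands.
Agt, chr8:124569657-124569956, minus strand: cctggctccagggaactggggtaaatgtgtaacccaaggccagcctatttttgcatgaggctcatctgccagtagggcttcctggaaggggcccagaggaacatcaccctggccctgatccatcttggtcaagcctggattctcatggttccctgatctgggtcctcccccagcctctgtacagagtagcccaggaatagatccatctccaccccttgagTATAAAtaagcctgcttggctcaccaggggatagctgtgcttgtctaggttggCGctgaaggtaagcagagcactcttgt
Atp6ap2, chrX:12587509-12587808, plus strand: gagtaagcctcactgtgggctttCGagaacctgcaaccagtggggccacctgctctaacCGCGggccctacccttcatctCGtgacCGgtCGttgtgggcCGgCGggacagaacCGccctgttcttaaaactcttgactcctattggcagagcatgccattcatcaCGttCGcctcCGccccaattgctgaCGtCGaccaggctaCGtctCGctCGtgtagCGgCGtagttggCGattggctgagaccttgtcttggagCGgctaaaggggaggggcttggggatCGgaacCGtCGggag
The Agt window holds 1 CG pair and has TATAAA beginning at position -30 from the start. The Atp6ap2 window holds 24 CG pairs and no TATAAA on either strand. Over 32851 RefSeq windows of the same length the median was 7 CG pairs, and 13.6% held TATAAA on one strand or the other. Windows of 989 genes found in all 65 cells had a median of 21 CG pairs and 7.58% held the motif, against 12 and 13.7% for 146 genes found in 5 to 9 cells. A match describes these letters only.

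Atp6ap2, at chrX:12587801-12617049 on the plus strand, was the steadiest of the 3 genes. It ran from 7.50 through a median of 9.12 to 10.16 in chow cells. In low-sodium cells it ran from 7.09 through 8.82 to 9.93. The lowest level, that of low-sodium neuron 14, came from 157 reads, and no cell held fewer than 18 reads. Thinning to 50000 reads left it in every cell. Its mean was 8.89 ± 0.69 over all cells, and 66.3% of 205 genes of like mean had a larger SD. Agtr1a and Atp6ap2 levels had a Spearman correlation of 0.34 over 65 cells and 0.41 without the high-sum cells.

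A group of V-ATPase genes stood near Atp6ap2 and the rest lay lower. Of 26 listed genes 18 had a line, and 15 of these were found in all 65 cells. Per kb of exon Atp6ap2 (200 ± 87.2) lay among Atp6ap1, the other accessory subunit gene (223 ± 168), Atp6v1f (216 ± 130), Atp6v1g2 (205 ± 108), Atp6v1b2 (199 ± 84.6), Atp6v0b (199 ± 87.0) and Atp6v0e2 (197 ± 79.2). These neighbours did not differ beyond their spread. The lowest were Tcirg1 (6.34 ± 22.9) and Atp6v0a2 (7.45 ± 9.74), alternative membrane subunits, and Atp6v0e (10.7 ± 14.3). Against Atp6ap2, the other 17 genes had a median Spearman correlation of 0.13 (-0.12 to 0.52), beside 0.03 over all 10120 genes compared. The highest was Atp6v1a, the catalytic subunit gene, at 0.52.

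Between diets, the 3 genes differed by less than the spread over cells. The Agtr1a mean was 7.05 ± 1.73 over 33 chow cells and 7.08 ± 2.18 over 32 low-sodium cells. The difference (low sodium minus chow) of 0.03 became -0.25 once high-sum cells were left out. Leaving out chow neuron 45 alone gave -0.19 and leaving out low-sodium neuron 35 alone gave 0.26, so its sign rests on single shallow cells. For Atp6ap2 the means were 9.04 ± 0.58 and 8.73 ± 0.75, and the difference was -0.32 (-0.31 without the high-sum cells). Agt was 1.19 ± 2.72 and 0.24 ± 1.20, a difference of -0.95. Without the 24 cells with astrocyte markers it was -0.11. Only 2 of the 41 cells left held Agt, from 1 read each, so that value cannot show a difference between diets. Over 10726 genes with a mean of at least 1 the median difference was -0.12.

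Agtrap had the lowest diet difference of the listed renin-angiotensin genes, and was singled out after its values were seen. It encodes a protein that binds the tail of the AT1 receptor and promotes its internalisation, and lies at chr4:148077061-148088031 on the minus strand. Chow cells had a lowest level of 0, a median of 4.80 and a highest of 7.90, and low-sodium cells 0, 0.36 and 6.80. The ranges overlapped, but more chow cells were high. Among chow cells 24 held the transcript (72.7%, 54.5% to 86.7%), and among low-sodium cells 16 did (50.0%, 31.9% to 68.1%). Means were 3.99 ± 2.77 and 2.02 ± 2.38 (n = 33 and 32 cells), a difference of -1.97, less than the SD over cells of either diet. Of the 10726 genes, 27 had a lower difference, and 16 without the high-sum cells, where Agtrap stood at -2.01.

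Depth and astrocyte markers are given beside this difference. With every cell thinned to 50000 reads it was -2.39, and the share of cells with Agtrap 63.6% in chow and 25.0% in low sodium. The mean of the 15 narrower astrocyte markers ran from 0 to 7.56 in chow (median 1.25) and from 0 to 5.44 in low sodium (median 0.59). Agtrap had a Spearman correlation of 0.26 with it over 65 cells. Without the 24 cells with at least 3 of these markers the difference was -1.55. Of other cell types, at least 3 ependymal markers exceeded 10 CPM in 8 chow and 3 low-sodium cells, endothelial in 4 and 1, oligodendrocyte in 11 and 13, and mural in 1 and 2. Their part in the difference was not tested. Agtrap and Agtr1a levels had a Spearman correlation of -0.01, and 39 cells held both.

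Of the 12 renin-angiotensin genes with a mean of at least 1, 6 were higher and 6 lower in low sodium, where 42.1% of all genes were higher and 57.9% lower. Agtrap alone differed by -1 or less, a size that 6.99% of all genes reached, and none by 1 or more (3.93% of all genes). The median difference was -0.15. Without the high-sum cells 2 were higher and 10 lower, where 43.1% of all genes were higher and 56.9% lower, and the median was -0.33 beside -0.09 over all genes. Agtrap was again the single gene at -1 or less (6.73% of all genes), and none reached 1 (2.96% of all genes). With thinning 3 were at -1 or less, namely Agtrap, Thop1 and Lnpep, as were 15.2% of all genes. Without the cells with astrocyte markers 2 were, Agtrap (-1.55) and Thop1 (-1.53), beside 9.97% of all genes. Thop1, an oligopeptidase gene, differed by -0.62 (-0.88 without the high-sum cells), Rnpep by 0.37 (0.39), Lnpep by 0.19 (-0.47) and Agtr2 by 0.50 (-0.03). Prep, a prolyl endopeptidase gene, differed by 0.03 (-0.54). The signs of Agtr1a, Agtr2, Lnpep and Prep thus turned when the 9 cells were left out.

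**Figure D5:**
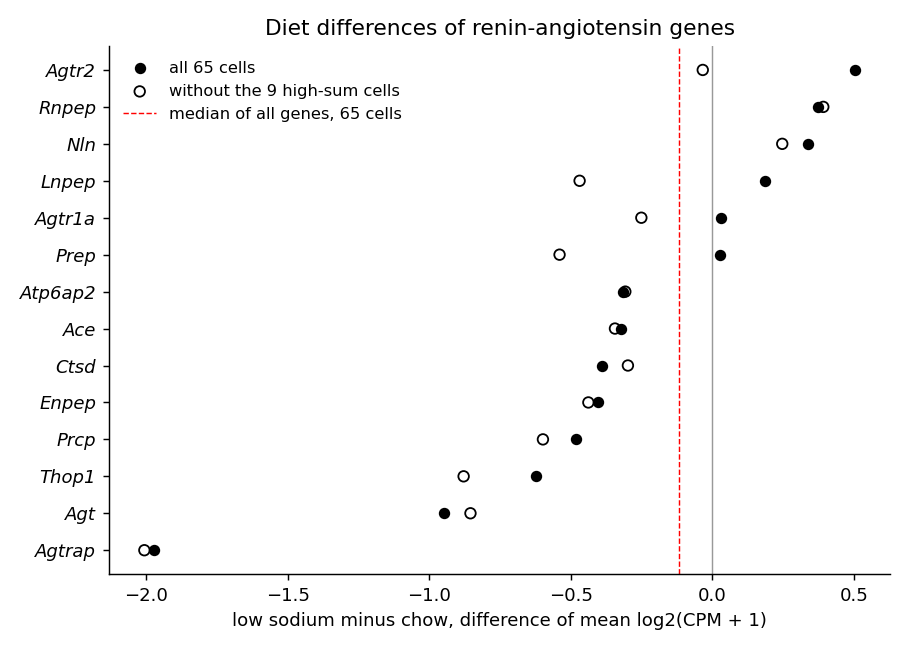
Difference of mean log2(CPM + 1), low sodium minus chow, for the 14 renin-angiotensin genes in the table, over all 65 cells (filled) and without the 9 high-sum cells (open), where the dashed line is the median of all genes. Agtrap lies near -2 in both, and Agtr1a moves from 0.03 to -0.25.

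Genes that carry or limit AT1 receptor signals were mostly present, and as a list they lay near all genes between diets. Of 41 listed names 33 had a line, and 7 genes were found in all 65 cells, among them Gnaq, the G protein subunit that AT1 uses, and Plcb4, a phospholipase C gene. Of the 32 with a mean of at least 1, 15 were higher and 17 lower, beside 42.1% and 57.9% of all genes, with a median of -0.05. Without the high-sum cells 16 were higher and 16 lower (43.1% and 56.9% of all genes). Then 2 reached 1 or more, Rgs4 and Gnai1 (2.96% of all genes did), and 1 reached -1 or less, Gna12 at -1.16 (6.73% of all genes). Rgs4, which limits Gq signalling, was 5.61 ± 3.24 in chow and 7.14 ± 2.62 in low sodium, which gives 1.53 (1.91 with the high-sum cells left out) and was the single difference of 1 or more (3.93% of all genes). Rgs2, a relative with a preference for Gq, went the other way, at 6.77 ± 1.05 and 5.80 ± 2.53 (-0.97, and -0.70 without the high-sum cells). Gnai1, an inhibitory G protein subunit gene, was 5.68 ± 2.29 and 6.65 ± 1.06 (0.98, and 1.08 without them). Plcb4 differed by 0.83 (0.61), Src by 0.96 (0.37) and Gnaq by -0.14 (0.10). Each of these differences was smaller than the SD over cells of at least one diet.

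Among V-ATPase genes 5 of 18 were higher and 13 lower in low sodium (42.1% and 57.9% of all genes), with a median of -0.23. Without the high-sum cells 3 were higher and 15 lower (43.1% and 56.9% of all genes), with a median of -0.07. Atp6v0e was 4.44 ± 2.52 and 3.00 ± 2.57, and Atp6v1f was 7.94 ± 0.63 and 7.20 ± 1.05. Their differences of -1.44 and -0.74 were -0.90 and -0.29 without the high-sum cells, and that of Atp6v0e was -0.24 without the cells with astrocyte markers. Among the 16 peptide receptor list genes with a mean of at least 1, 9 were higher and 7 lower (42.1% and 57.9% of all genes). Their median was 0.06. Without the high-sum cells 7 were higher and 9 lower, near the shares of all genes (43.1% and 56.9%). The median was then -0.12, beside -0.09 over all genes. Npffr1 was 4.49 ± 3.35 and 6.08 ± 2.39 (1.59, and 1.81 without the high-sum cells), with transcripts in 22 chow cells and 30 low-sodium cells. Its difference was 0.48 without the cells with astrocyte markers. The accessory gene Ramp1, which shapes calcitonin-family receptors, was 2.97 ± 3.21 and 1.52 ± 2.71 (-1.45, with -1.14 without the high-sum cells and -0.46 without the cells with astrocyte markers).

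The genes whose levels went most closely with each member were ranked by Spearman correlation over all 65 cells, among genes above 0 in at least 16 cells. For Agtr1a the highest were Alcam, a cell adhesion gene (0.56), Rcan2, a calcineurin regulator (0.50), Dlgap3, a postsynaptic scaffold gene (0.49), and Eif4a2, a translation factor gene (0.47). Gprasp1, which encodes a sorting protein for G protein-coupled receptors (0.46), Rap1gap2 (0.46), Smim17 (0.45) and Cngb1, a cyclic nucleotide-gated channel gene (0.45), followed. Alcam stood at 0.50 within chow and 0.59 within low sodium, and at 0.44 after thinning. For Atp6ap2 the highest were Pfn2, a profilin gene (0.67), Eif4a2 (0.67), Actr10, a dynactin gene (0.59), Serinc1 (0.58), Higd1a (0.58), Canx, an endoplasmic reticulum chaperone gene (0.58), Cacybp (0.57) and Map3k15 (0.55). Agt, at 0 in 56 cells, went with Nhsl1 (0.54), Aqp4 (0.53), the astrocyte filament gene Gfap (0.53), Zc3hav1l (0.49), S100a16 (0.49), Glce (0.48), Bok (0.47) and Bet1l (0.47). The median over all genes compared was 0.02 for Agtr1a, 0.03 for Atp6ap2 and 0.04 for Agt.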

How the data were processed

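The authors deposited log2(CPM + 1) per gene and cell, from polyA RNA made into Smart-Seq2 and Nextera XT libraries, per the labels' protocols. The submitters' processing notes name featureCounts 1.4.6, SAMtools 0.1.19, Picard 2.5.0, HISAT2 2.0.5 and bcl2fastq, and the builds mm10 and GRCm38. The sources used here give no strand setting, annotation or scaling total. The table has 12015 lines, each above 0 in at least 5 cells, so rarer genes have no line. Lines with shared names (121) or serial numbers (19) entered totals only.

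CPM were recovered by undoing the log2, and reads by dividing by the value of 1 read in each cell (100% of values up to 20 reads were whole within 0.1). Exon lengths are unions of GENCODE M21 exons (GRCm38). Differences are low-sodium minus chow means over cells. No diet was tested, since no animal is named. Shares have exact (Clopper-Pearson) 95% intervals, which cover counting error only, as do limits at 0 (3 reads). The pseudocount of 1 CPM shrinks differences of low genes. Named genes were the members, every measured renin-angiotensin gene, the 8 genes most like each member, and up to 6 per other list by difference and by level. Slc17a6, Gnaq, the lowest V-ATPase genes, the count of 12 astrocyte markers and values of single cells were picked after they were seen. Members and lists were chosen with earlier results of these data known. Other settings were pseudocounts of 10 and 0.1 CPM, rescaling, size factors, thinning to 50000 reads, other detection and mean limits, and leaving out cells. Ranking and differences were checked on simulated data. Changes were set only in genes of higher CPM and without high-sum scaling, so low genes such as Agt and Agtrap were not covered. Python 3.11.15, numpy 2.4.6, scipy 1.17.1, pandas 2.3.3 and matplotlib 3.10.9 were used.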

Additional observations from a re-analysis of the deposited data

How the results depend on the processing

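No paired analysis was possible because the results come from no test and a neuron's number names a cell only. Leaving out cells with 3 of all 18 astrocyte markers left 1 cell per diet and is not reported. In its place, chosen after seeing the data, cells with 3 of the 15 narrower markers were left out. Values that moved beyond their spread were these. Shares counted as moved if outside the interval, and correlations if they shifted by over 0.1. Differences counted only if they shifted by at least the SD over cells (over genes for lists), a wide limit. The share of cells with Agtr1a was 100% without the 7 cells with fewest genes, and that with Agt 4.88% without the cells with astrocyte markers. The Agt difference was -3.14 as a log2 ratio of mean CPM plus 1. By the same ratio Agtr1a was at 0.53 against 0.03 and Agtr2 at 2.41 against 0.50, shifts within that wide limit. Agtr1a with Nr3c2 was 0.094 after rescaling, 0.075 after thinning and 0.081 without the cells with fewest genes, and Agtr1a with Hsd11b2 was 0.29 by Pearson. Agt with the astrocyte score was 0.72 by Pearson, 0.49 in chow and 0.16 in low sodium. It was -0.12 without the cells with astrocyte markers, where only 2 cells held Agt. Of the 8 genes most like Agtr1a, 5 stayed among the 50 highest by Pearson and 5 after thinning. Of those for Agt, 4 did after thinning and 1 with genes limited to those above 0 in 33 or more cells. Leaving out single cells in turn gave Agtr1a differences of -0.19 to 0.26, Agt of -1.16 to -0.71 and Atp6ap2 of -0.36 to -0.26. It gave correlations of 0.18 to 0.25 with Nr3c2, 0.12 to 0.20 with Hsd11b2 and 0.33 to 0.45 for Agt. Agtrap ran from -1.06 (pseudocount of 10 CPM) to -4.44 (median over cells). The median of all genes was -0.27 after rescaling and -0.30 after thinning, against -0.12. The cause was not tested. Genes resting on a few reads, Agt and Agtr2 above all, are limited by depth.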
